A study of Mus musculus with 20 samples.

Results

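The genes described here are 10 parts of the circadian clock as it is read in mouse skeletal muscle: the activator gene Arntl (the Bmal1 gene), the repressor genes Nr1d1 and Nr1d2 (REV-ERB alpha and beta), Per1, Per2, Per3, Cry1 and Cry2, and the output genes Dbp and Tef. They were taken by name, with positions from GENCODE M21 on GRCm38, and all 10 of 10 were found among the 53465 gene identifiers in each table and passed the filter on low counts. Poly(A)-selected RNA of muscle from wild-type (WT) mice was sequenced in 20 libraries. The groups were trained males, non-trained males, trained females and non-trained females, with 5 libraries each; the only genotype among them is wild type, and training and sex are the only other differences the labels give. Which muscle was taken, how old the mice were, how they were trained, at what time of day tissue was collected and in which batch are not given in the labels used here. Clock gene levels follow the time of day, so differences between the groups in these genes cannot be told apart from differences in collection time. Nor do the labels tie a library to an animal of its own, so a p-value here speaks only of how far samples with one label spread.

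The clock of a cell is a loop of transcription and repression. BMAL1, the product of Arntl, pairs with CLOCK or NPAS2 and switches on genes that carry E-boxes, among them the Per, Cry and Nr1d genes and Dbp. PER and CRY proteins return to the nucleus and block that pair, and the REV-ERB proteins bind ROR elements, through which they hold Arntl itself down. DBP and TEF are transcription factors of the PAR bZIP family that bind D-boxes and carry the rhythm to output genes. In muscle the clock is known for daily rhythms in fuel use and contractile genes, and in most tissues Arntl runs opposite to the Per genes and Dbp over the day, with Nr1d1 ahead of the Per genes.

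Libraries held 22043145 to 38483572 counts, and the lowest count of any of the 10 genes in any library was 83 (Per2). No pair of libraries held identical counts. Genes of mitochondrial DNA took 11.2% to 15.9% of counts. No muscle fibre marker of 10 was at 0 in any group, and their summed level was 126079 to 143453 CPM in trained males, 129635 to 150436 in non-trained males, 130239 to 153034 in trained females and 111310 to 157583 in non-trained females (CPM, read counts scaled to a common library size with TMM factors). In bulk tissue, fewer cells of a type and less RNA per cell cannot be told apart. A pair of libraries stood apart from their groups. Non-trained female library 1 had 18727 genes above 0, against 19806 to 21449 in the other libraries. Non-trained male library 5 had clock gene levels unlike the other non-trained males: Arntl stood at 14.9 CPM in it, against 25.8 to 29.1 CPM in the other 4, Nr1d1 at 47.7 CPM against 124 to 158, and Per2 at 30.2 CPM against 6.54 to 15.7. The comparisons were therefore also fitted without each of these libraries and without both.

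Some of the DNA letters to which clock proteins bind lie near the starts of these genes. RefSeq windows of 300 bases (250 before to 50 after a start, GRCm38.p6) were held for 9 of the 10 genes, in 12 windows, with Arntl, Per1 and Tef having more than 1; Per2 is not among them. Both strands were searched for the E-box CACGTG, its variant CACGTT, which reads AACGTG where found on the reverse strand, the D-box TTATGTAA or TTACGTAA, the core of the ROR element TAGGTCA and the cAMP response element TGACGTCA. One stretch is shown for each gene with a match, 5' to 3' on the gene's strand with the motif in capitals, so that the inputs can be set beside the levels that follow; a match is a description of these letters and not a site of binding. No matches overlapped each other. The Cry1 stretch also holds the E-box variant, left in lower case, and a match in the other Tef window is not printed.
Arntl ROR element core, chr7:113207529-113207558 (+): gaaggcagaaagTAGGTCAgggacggaggt
Per1 E-box, chr11:69098753-69098818 (+): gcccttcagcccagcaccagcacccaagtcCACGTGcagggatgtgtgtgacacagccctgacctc
Per3 D-box, chr4:151044786-151044900 (-): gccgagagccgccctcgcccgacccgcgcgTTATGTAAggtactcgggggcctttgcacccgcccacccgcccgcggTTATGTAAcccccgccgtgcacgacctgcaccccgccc
Cry1 E-box, chr10:85185079-85185144 (-): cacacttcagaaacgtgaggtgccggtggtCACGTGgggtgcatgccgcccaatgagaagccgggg
Cry2 E-box variant, chr2:92434200-92434265 (-): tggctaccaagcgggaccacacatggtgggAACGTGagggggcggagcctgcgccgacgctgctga
Nr1d1 E-box variant, chr11:98775378-98775435 (-): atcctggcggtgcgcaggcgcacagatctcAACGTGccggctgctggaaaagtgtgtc
Tef E-box, chr15:81811246-81811311 (+): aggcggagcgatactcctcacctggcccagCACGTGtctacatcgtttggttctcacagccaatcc

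The ROR element core in Arntl lay 30 bases after the annotated gene start in its second window, in an exon annotated as UTR. It is the letter string to which REV-ERB and ROR proteins bind. Per3 held a pair of D-boxes, 205 and 158 bases before its start, the string bound by DBP and TEF. E-boxes lay 166 bases before the start in the Per1 window (in an intron of longer transcripts), 60 before it in Cry1, and 138 before it in the Tef window shown (also an intron of longer transcripts). E-box variants lay 166 bases before the start of Cry2 and 28 before that of Nr1d1. The windows of Dbp and Nr1d2 held none of these strings. Over all 32851 windows, 7.15% held the E-box, 4.68% its variant, 1.06% the D-box, 2.61% the ROR element core and 1.79% the cAMP response element.

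By level per length, in deposited TPM, a measure that divides out transcript length, the output gene Tef was highest and Per2 lowest. Over the 20 libraries Tef averaged 107.8 ± 21.0 TPM, Nr1d1 61.4 ± 20.1, Dbp 47.3 ± 28.9, Nr1d2 44.0 ± 5.61, Cry2 17.5 ± 3.98, Per1 15.4 ± 5.44, Arntl 14.1 ± 4.81, Cry1 9.28 ± 1.76, Per3 5.82 ± 2.02 and Per2 3.41 ± 2.29 TPM (SD over all 20 libraries, groups included). Nr1d1, Dbp and Nr1d2 overlapped their neighbours within 1 SD, as did the run of Cry2, Per1 and Arntl, and Arntl, Cry1, Per3 and Per2 each overlapped the next; Tef stood above Nr1d1, and Nr1d2 above Cry2, by more than both SDs. The genes also differed in how far they ranged. The ratio of the highest to the lowest CPM among the 20 libraries was 14.6 for Dbp, 9.55 for Per2, 5.39 for Per1, 4.30 for Nr1d1, 3.70 for Arntl and 3.42 for Per3. It was lower for Cry2 (2.06), Tef (1.96), Nr1d2 (1.75) and Cry1 (1.55), so the REV-ERB pair and the PAR bZIP pair each held a gene with a wide and a gene with a narrow range.

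**Figure D1:**
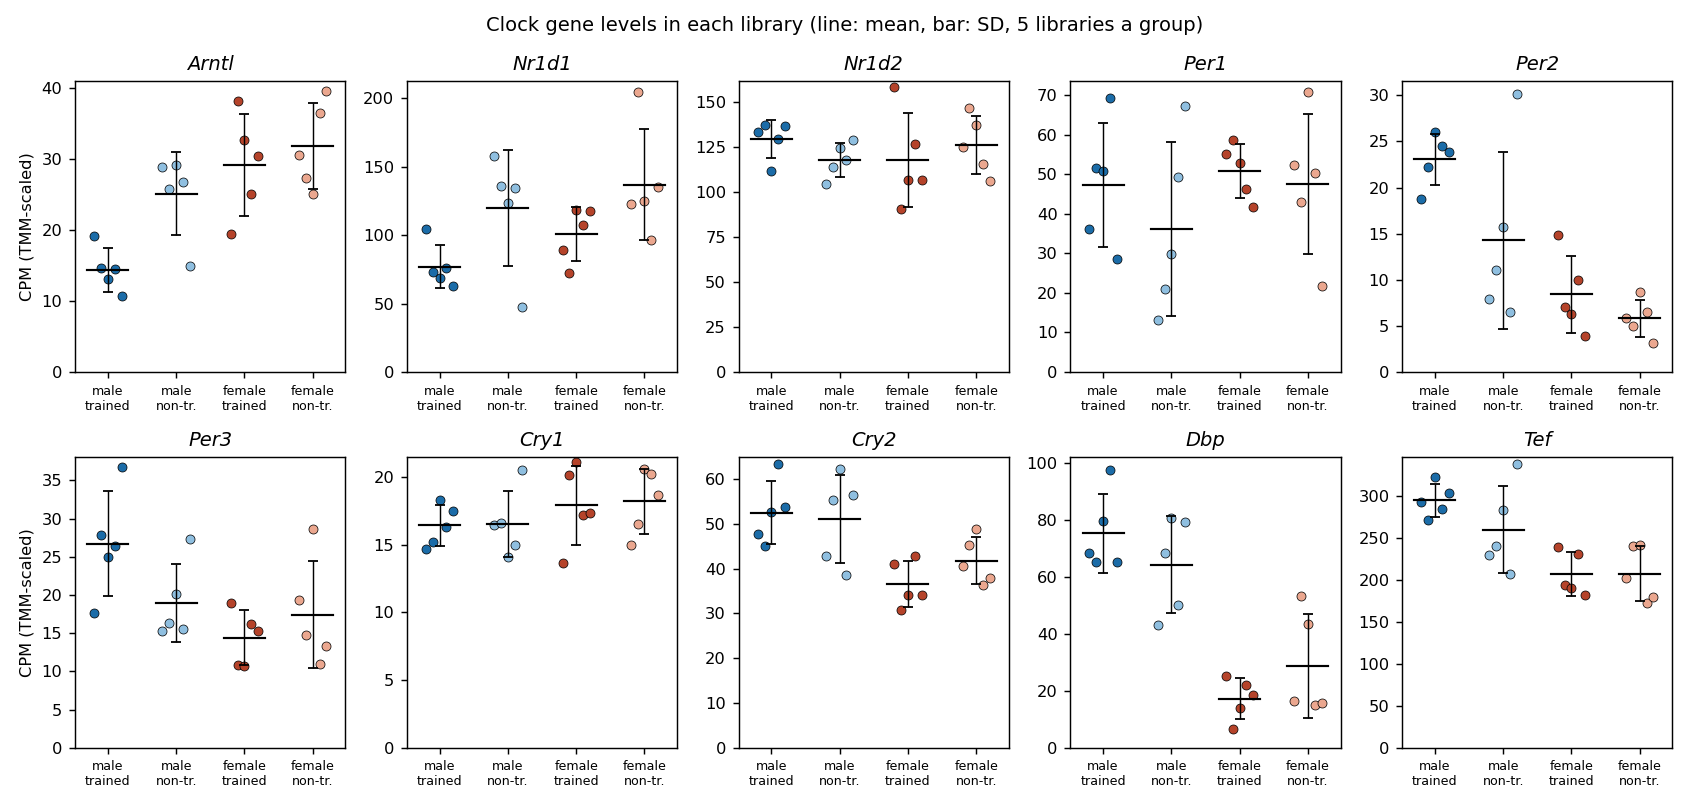
Level of each clock gene in CPM (vertical axes, each from 0, scaled by TMM library size) in trained males, non-trained males, trained females and non-trained females; points are libraries, lines means and bars SD (5 libraries a group). Arntl lies between 10.7 and 19.2 CPM in trained males, and Dbp between 65.2 and 97.7 CPM there, against 6.69 to 25.1 CPM in trained females.

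Arntl (chr7:113207465-113314126, + strand), the activator, was lowest in trained males. It stood at 19.2, 14.7, 13.1, 14.4 and 10.7 CPM in trained males, against 28.9, 25.8, 29.1, 26.8 and 14.9 CPM in non-trained males. In females it stood at 19.4, 38.1, 32.7, 25.1 and 30.4 CPM in trained animals, against 30.6, 27.4, 25.1, 36.5 and 39.6 CPM in non-trained animals. Each trained male lay below each trained female, with the highest male (19.2 CPM) just under the lowest female (19.4 CPM, trained female library 1), and only non-trained male library 5 among the other groups lay within the trained male range. Between trained males and trained females Arntl fell (log2 difference -1.01, SE 0.20, adjusted p = 0.0058). In non-trained mice the difference did not pass (log2 difference -0.34, SE 0.20, adjusted p = 0.33). Over both training states the mean difference, male minus female, passed (log2 difference -0.68, SE 0.14, adjusted p = 0.0026).

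Neither REV-ERB gene, Nr1d1 (chr11:98767932-98775333, - strand) or Nr1d2 (chr14:18204054-18239127, - strand), passed a comparison, and Nr1d1 spread more widely. Nr1d1 stood at 104, 73.2, 68.7, 76.0 and 63.0 CPM in trained males, against 158, 136, 124, 134 and 47.7 CPM in non-trained males. In females it stood at 88.8, 72.0, 118, 108 and 118 CPM in trained animals, against 123, 205, 125, 96.8 and 135 CPM in non-trained animals. Trained libraries lay lower on average in both sexes, but the groups overlapped, and the lowest library of all was non-trained male library 5. Nr1d2, in contrast, averaged 129.8 ± 10.5 CPM in trained males, 118 ± 9.52 in non-trained males, 118 ± 26.0 in trained females and 126 ± 16.2 in non-trained females (SD, n = 5 each). In trained mice, male minus female, Nr1d1 gave a log2 difference of -0.39 (SE 0.25, adjusted p = 0.42), and Nr1d2 gave a log2 difference of 0.14 (SE 0.12, adjusted p = 0.56).

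Among the period genes, whose proteins form the repressor complex with CRY, Per2 and Per3 passed between the sexes in trained mice and Per1 did not pass. Per2 (chr1:91415982-91459324, - strand) stood at 18.8, 22.2, 26.0, 24.5 and 23.8 CPM in trained males, against 7.87, 11.01, 15.7, 6.54 and 30.2 CPM in non-trained males. In females it stood at 14.9, 7.05, 6.26, 9.93 and 3.90 CPM in trained animals, against 5.82, 4.96, 8.72, 6.46 and 3.16 CPM in non-trained animals. Each trained male stood above each female library of either state, and non-trained males spread widely, with library 5 above all trained males. Per2 rose in trained males relative to trained females (log2 difference 1.45, SE 0.39, adjusted p = 0.034). In non-trained mice the difference did not pass (log2 difference 1.29, SE 0.39, adjusted p = 0.062) and was 0.80 without non-trained male library 5 (adjusted p = 0.185), and the mean over both states did (log2 difference 1.37, SE 0.27, adjusted p = 0.0024).

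Per3 (chr4:151003652-151044665, - strand; it overlaps Camta1 on the same strand) stood at 17.7, 27.8, 24.98, 26.4 and 36.8 CPM in trained males, against 18.98, 10.8, 10.7, 16.1 and 15.3 CPM in trained females. Trained male library 1 lay inside the female range and the other 4 males above it. Per3 rose in trained males relative to trained females (log2 difference 0.89, SE 0.25, adjusted p = 0.043), gave a log2 difference of 0.12 (SE 0.25, adjusted p = 0.83) in non-trained mice, and just missed the threshold over both states (log2 difference 0.50, SE 0.18, adjusted p = 0.054). Over both states it passed with DESeq2 (adjusted p = 0.0215) and limma-voom (adjusted p = 0.0465), with library size alone and with the stricter filter. Per1 (chr11:69095217-69109960, + strand), the period gene that is induced fastest by outside signals such as light, cAMP and glucocorticoid, lay at 28.4 to 69.2 CPM in trained males, 13.1 to 67.1 in non-trained males, 41.8 to 58.7 in trained females and 21.7 to 70.6 in non-trained females, and its groups overlapped throughout (log2 difference -0.11, SE 0.37, adjusted p = 0.91 between trained males and females).

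Of the cryptochromes, repressors of the BMAL1 pair, Cry2 passed between the sexes and Cry1 did not. Cry2 (chr2:92403646-92434043, - strand) stood at 47.7, 45.1, 52.6, 63.3 and 53.7 CPM in trained males, against 41.1, 30.7, 34.2, 42.9 and 34.1 CPM in trained females. These groups did not overlap, and Cry2 rose in the males (log2 difference 0.52, SE 0.13, adjusted p = 0.021). In non-trained mice it stood at 42.8, 55.4, 62.1, 38.6 and 56.3 CPM in males, against 40.6, 45.2, 48.9, 36.2 and 37.8 CPM in females, which overlapped (log2 difference 0.29, SE 0.13, adjusted p = 0.19), and the mean over both states passed (log2 difference 0.40, SE 0.09, adjusted p = 0.0043). Cry1 (chr10:85131700-85185064, - strand), which carries an E-box at its start and in most tissues peaks later than Per2, averaged 16.4 ± 1.51 CPM in trained males, 16.5 ± 2.44 in non-trained males, 17.9 ± 2.94 in trained females and 18.2 ± 2.39 in non-trained females (SD, n = 5 each). It passed no comparison and was the member with the smallest range.

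The largest difference of the set was that of Dbp, an output gene. Dbp (chr7:45705088-45710203, + strand) stood at 68.6, 65.2, 79.8, 97.7 and 65.3 CPM in trained males, against 25.1, 6.69, 13.9, 22.1 and 18.4 CPM in trained females. In non-trained mice it stood at 43.2, 68.3, 80.7, 50.3 and 79.5 CPM in males, against 16.4, 53.4, 43.6, 14.8 and 15.6 CPM in females. The lowest trained male (65.2 CPM) was above the highest trained female (25.1 CPM), whereas non-trained female libraries 2 and 3 reached into the range of the non-trained males. Dbp rose in trained males relative to trained females (log2 difference 2.12, SE 0.39, adjusted p = 0.0039), missed the threshold in non-trained mice (log2 difference 1.16, SE 0.37, adjusted p = 0.077) and passed over both states (log2 difference 1.64, SE 0.27, adjusted p = 0.00048). Sphk2, a sphingosine kinase gene that overlaps Dbp on the other strand, was lower in males over both states (log2 difference -0.37, SE 0.09, adjusted p = 0.008), opposite in direction to Dbp. The strand setting of the counting is not given, so reads from genes that overlap on opposite strands, Dbp with Sphk2 and Nr1d1 with Thra among them, cannot be told apart.

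Tef (chr15:81802421-81826863, + strand) stood at 293, 271, 322, 284 and 303 CPM in trained males, against 239, 193, 189.8, 230.4 and 182 CPM in trained females. The groups did not overlap, and Tef rose in the males (log2 difference 0.51, SE 0.12, adjusted p = 0.018). In non-trained mice Tef stood at 229.7, 241, 283, 207 and 338 CPM in males, against 202, 241, 241, 172 and 179.7 CPM in females, and did not pass (log2 difference 0.33, SE 0.12, adjusted p = 0.13). Over both states it rose in males (log2 difference 0.42, SE 0.09, adjusted p = 0.0025).

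Counted together, 5 of the 10 genes rose and 1 fell in trained males relative to trained females, where 5.60% of all 15709 genes tested were called (3.39% higher and 2.22% lower). The median log2 difference of the 10 was 0.32, against 0.0030 over all genes. Per2, Cry2, Dbp and Tef lay higher and Arntl lower without any overlap of the 5 and 5 libraries, 5 of 10 genes, where 7.38% of all genes did so (3.92% higher and 3.46% lower). In non-trained mice 0 of the 10 passed in edgeR, where 5.21% of all genes were called; 4 of the 10 and 21.7% of all genes had an unadjusted p under 0.05, DESeq2 called Per2 and Dbp, and limma-voom called Dbp. None was free of overlap there, against 6.38% of all genes. Over both states 4 rose (Dbp, Per2, Tef and Cry2) and 1 fell (Arntl), where 17.9% of all genes were called (9.91% higher and 8.03% lower). Whether the sex difference itself changed with training was tested by the interaction, in which 0 of the 10 passed (0.00% of all genes in edgeR; 656 genes or 4.18%, 2 of the 10 among them, had an unadjusted p under 0.05; DESeq2 called 1 gene, none of the 10, and limma-voom 0). The closest were Arntl (log2 difference -0.67, SE 0.28, unadjusted p = 0.026, adjusted p = 0.999) and Per3 (log2 difference 0.77, SE 0.35, unadjusted p = 0.041, adjusted p = 0.999). A larger difference in trained than in non-trained mice was thus not shown for any of the genes.

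**Figure D2:**
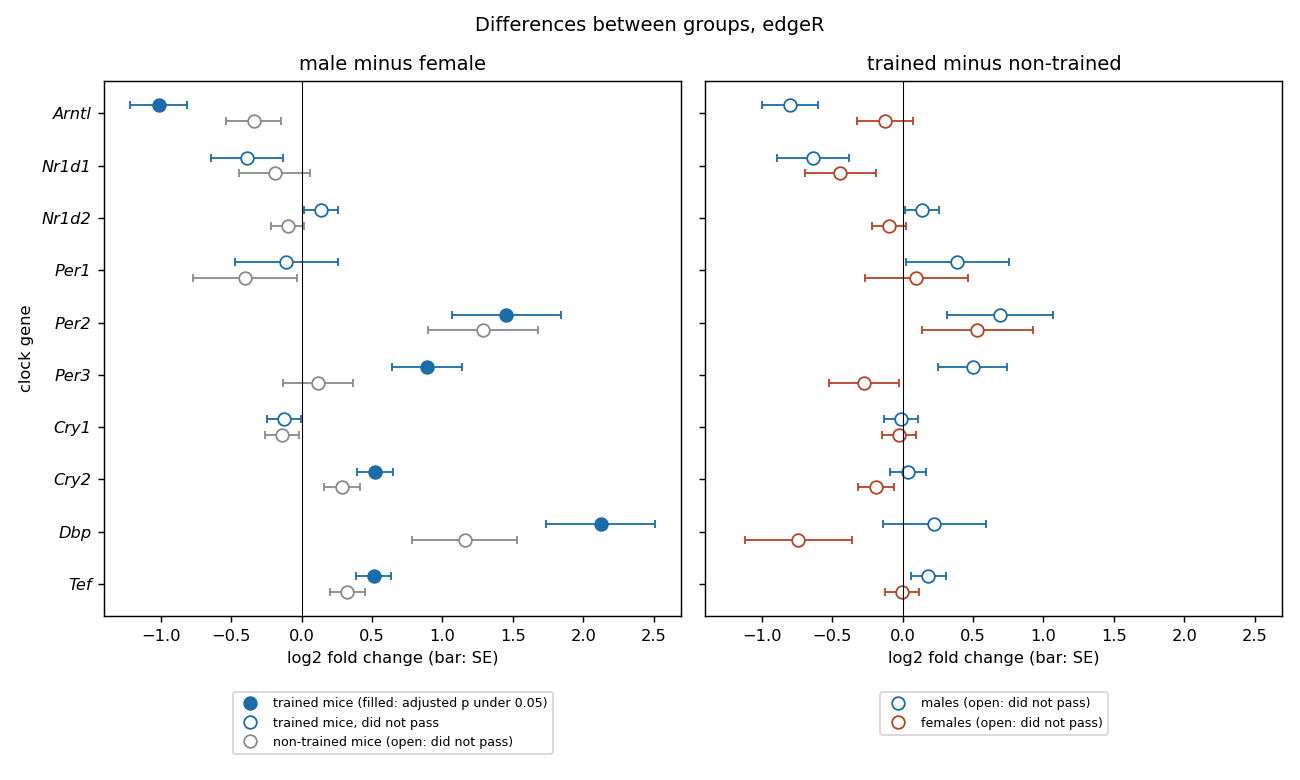
Log2 fold change of each clock gene (horizontal axes, edgeR; bar: SE) for males minus females in trained and non-trained mice (left) and for trained minus non-trained in each sex (right), filled where the adjusted p was under 0.05. Arntl, Per2, Per3, Cry2, Dbp and Tef are filled for trained mice, at -1.01, 1.45, 0.89, 0.52, 2.12 and 0.51, and nothing is filled on the right.

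How far these calls held without single libraries differed by gene. In trained mice the Arntl and Dbp calls held in all 20 fits with 1 library left out, with log2 differences of -1.14 to -0.90 and 1.92 to 2.30. Tef held in 18 of the 20 (adjusted p at most 0.0563), Cry2 in 16 (at most 0.0613), Per2 in 12 (at most 0.0813) and Per3 in 10 (at most 0.105). The count of 6 fell to 2 without trained female library 5, to 3 without trained female library 2 or 3 or trained male library 3 or 4, and to 4 without trained female library 4 or trained male library 2 or 5, and also with no filter on low counts, where Per2 (adjusted p = 0.0885) and Per3 (0.117) were lost. The count fell to 5, with Per3 lost, without non-trained male library 2 (adjusted p = 0.0526) or 3 (0.0521), which were not in the groups compared. It was 6 without non-trained female library 1, without non-trained male library 5 and without both. Over both states the 5 calls held in all 20 fits. Some genes passed only without a library. In non-trained mice, male minus female, Per2 passed without trained female library 1 (adjusted p = 0.0494), non-trained male library 1 (adjusted p = 0.0458) or non-trained male library 4 (adjusted p = 0.0381), and Dbp without non-trained female library 2 (adjusted p = 0.033). Over both states Per3 passed without non-trained female library 3 (adjusted p = 0.0105), trained female library 1 (adjusted p = 0.0412) or trained male library 1 (adjusted p = 0.0322).

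Non-trained male library 5 moved many values of the non-trained mice that had not passed, and none of the 10 genes passed without it. The log2 difference between non-trained males and females was then 0.80 for Per2 (1.29 with it), 0.19 for Tef (0.33), -0.22 for Arntl (-0.34), -0.77 for Per1 (-0.40), -0.24 for Cry1 (-0.14), -0.15 for Nr1d2 (-0.098) and -0.0095 for Nr1d1 (-0.19). Per3 turned sign, at -0.070 without the library and 0.12 with it. In the interaction Per2 was 0.64 without it (0.16 with it), Per1 0.66 (0.29), Nr1d1 -0.38 (-0.20), Tef 0.31 (0.19) and Cry1 0.11 (0.014). Without non-trained female library 1, the values that moved by more than 1.5 times were those of Cry1 and Tef for training in females and of Cry1 for training on average and the interaction, all of which lay within -0.090 to 0.083.

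Other features of the tissue differed between the sexes beside the clock genes. The share of all genes called in either direction was 5.60% in trained mice, 5.21% in non-trained mice and 17.9% over both states. Of 8 slow fibre markers, 1 fell in trained males relative to trained females, 6 fell in non-trained and 8 over both states, with summed levels of 744 to 2015 CPM in trained males, 355 to 1615 in non-trained males, 496 to 6214 in trained females and 1181 to 4942 in non-trained females. Of 7 macrophage markers, 6 rose in trained, 4 in non-trained and 7 over both states, with summed levels of 97.2 to 588 CPM in trained males, 121 to 280 in non-trained males, 53.8 to 106 in trained females and 34.1 to 101 in non-trained females. Of 10 muscle fibre markers, Myh7, the slow myosin heavy chain gene that is also a slow fibre marker, fell in non-trained mice and over both states and Acta1 over both states (log2 difference -0.20). Of 6 tendon and fibroblast markers, Dcn (0.63) and Pdgfra (0.54) rose over both states, with summed levels of 453 to 696 CPM in trained males, 581 to 775 in non-trained males, 346 to 565 in trained females and 106 to 718 in non-trained females. Of 6 erythroid markers, Hba-a1 (1.92) and Alas2 (2.28) rose in non-trained males relative to non-trained females, with summed levels of 239 to 365 CPM in trained males, 243 to 3754 in non-trained males, 223 to 807 in trained females and 194 to 472 in non-trained females. Of 7 Schwann cell markers none passed, but 6 had an unadjusted p under 0.05 in trained mice (20.7% of all genes; median log2 difference -0.97), with summed levels of 94.6 to 123 CPM in trained males, 114 to 225 in non-trained males, 80.3 to 324 in trained females and 45.1 to 169 in non-trained females. Of 7 adipocyte and 6 endothelial markers none passed between the sexes. Between trained and non-trained mice no marker of these lists passed, but 6 of 6 erythroid markers in males (4.30% of all genes; median -2.08) and 6 of 7 Schwann cell markers in females (8.57% of all genes; median 1.09) had an unadjusted p under 0.05. Of 7 adipocyte markers, 3 had an unadjusted p under 0.05 in trained relative to non-trained females (8.57% of all genes), and 6 lay above 0 (median 0.82). Summed levels of these were 263 to 380 CPM in trained and 153 to 259 in non-trained females. In males none had such a p, with a median of -0.097. No marker of these lists was at 0 in any group. Their part in the clock gene differences was not tested.

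Training gave no called clock gene in either sex. In males 0 of the 10 passed in edgeR (0.00% of all genes), 2 had an unadjusted p under 0.05, against 4.30% of all genes, and DESeq2 and limma-voom called none of the 10. Arntl gave a log2 difference of -0.80 (SE 0.20, unadjusted p = 0.00076, adjusted p = 0.99), with trained males between 10.7 and 19.2 CPM and the non-trained males other than library 5 between 25.8 and 29.1 CPM. Nr1d1 gave a log2 difference of -0.64 (SE 0.25, unadjusted p = 0.022, adjusted p = 0.99), Per2 a log2 difference of 0.69 (SE 0.38, unadjusted p = 0.082, adjusted p = 0.99), and Per3 a log2 difference of 0.50 (SE 0.25, unadjusted p = 0.058, adjusted p = 0.99). The other 6 lay between -0.01 (Cry1) and 0.39 (Per1).

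These male values were farther from 0 without non-trained male library 5. Without it the log2 difference was -0.93 for Arntl (adjusted p = 0.107), -0.83 for Nr1d1 (adjusted p = 0.317), 1.17 for Per2 (adjusted p = 0.502), 0.68 for Per3 and 0.75 for Per1, and none of the 10 passed. With each library left out in turn Arntl lay at -0.93 to -0.71. No clock gene was free of overlap between trained and non-trained males, where 1.09% of all genes were.

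In females 0 of the 10 passed in edgeR (0.00% of all genes) and 0 had an unadjusted p under 0.05, against 8.57% of all genes; DESeq2 and limma-voom called none of the 10. Dbp gave a log2 difference of -0.74 (SE 0.38, unadjusted p = 0.066, adjusted p = 0.62), where trained females averaged 17.2 ± 7.23 CPM and non-trained females 28.8 ± 18.3 CPM (SD over 5 libraries each). Per2 gave a log2 difference of 0.53 (SE 0.39, unadjusted p = 0.19, adjusted p = 0.77), and Nr1d1 a log2 difference of -0.44 (SE 0.25, unadjusted p = 0.099, adjusted p = 0.67). No gene of the set was free of overlap between trained and non-trained females, where 1.35% of all genes were. In the mean over both sexes, where edgeR called 0.0127% of all genes, 0 of the 10 passed and 3 had an unadjusted p under 0.05, against 9.17% of all genes, namely Arntl (log2 difference -0.46, SE 0.14, unadjusted p = 0.0037, adjusted p = 0.37), Nr1d1 (log2 difference -0.54, SE 0.18, unadjusted p = 0.0076, adjusted p = 0.39) and Per2 (log2 difference 0.61, SE 0.27, unadjusted p = 0.037, adjusted p = 0.51). DESeq2 and limma-voom called none of the 10 there either.

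The activator and the repressor and output genes were also set against each other within each library, as a single difference. For this the log2 CPM of each gene was centred on its mean over the 20 libraries, and Arntl was subtracted from the mean of Per1, Per2, Per3, Nr1d1, Nr1d2, Dbp and Tef. This difference averaged 1.12 ± 0.34 in trained males, 0.054 ± 0.639 in non-trained males, -0.57 ± 0.66 in trained females and -0.60 ± 0.64 in non-trained females (log2; SD over the 5 libraries of a group). The 5 trained males and non-trained male library 5 (1.14) held the 6 highest values, between 0.57 and 1.46, followed by trained female library 1 (0.36). The other 4 non-trained males lay between -0.54 and -0.029, and the other 4 trained females between -1.34 and -0.20. Non-trained females ran between -1.39 and 0.18. No test is given, since the genes were combined after their levels were known.

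**Figure D3:**
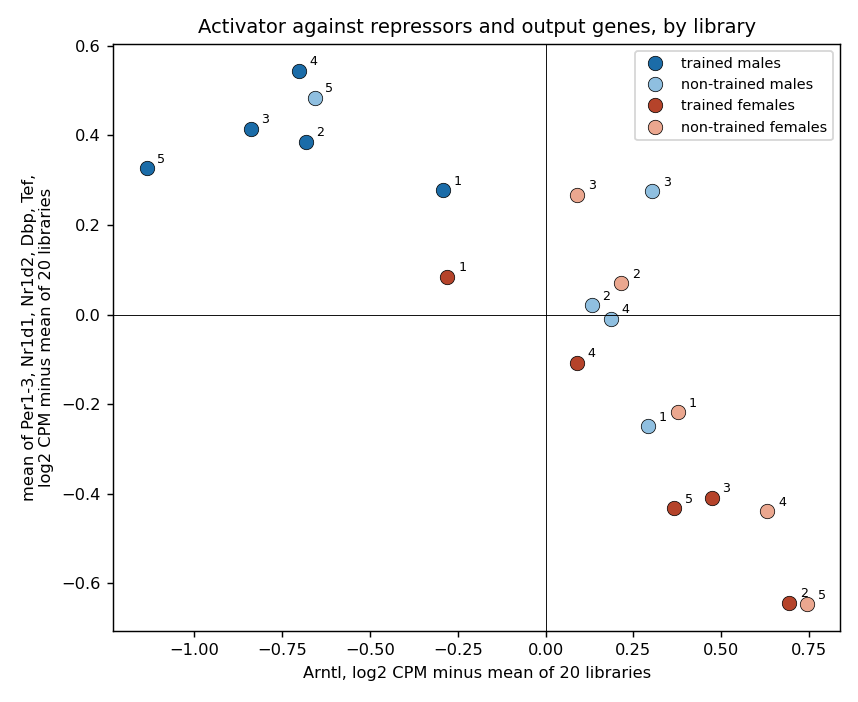
Each point is 1 library, labelled with its number: Arntl (horizontal) against the mean of Per1, Per2, Per3, Nr1d1, Nr1d2, Dbp and Tef (vertical), both as log2 CPM minus the mean of the 20 libraries. The 5 trained males and non-trained male library 5 lie at upper left, low in Arntl and high in the other genes, and most female libraries lie to the right.

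The ratio of Dbp to Arntl in CPM, both parts of the difference above, kept the trained males and non-trained male library 5 highest but ordered other libraries differently. It was 3.57 to 6.76 in trained males, and in non-trained males 5.33 in library 5 and 1.497 to 2.77 in the other 4. It was 0.175 to 1.29 in trained females and 0.395 to 1.95 in non-trained females. Trained female library 1 ranked 7 of 20 by the difference but stood at 1.29 here, below each non-trained male. The opposition to Arntl was not equally shared by the genes. Per2 stood on the other side of its mean from Arntl in 18 of 20 libraries, Per3 and Tef in 16, Nr1d2 in 14, Dbp in 13 and Per1 in 10. Nr1d1 did so in 3 and stood on the same side as Arntl in 17. By library, at least 5 of the 7 genes were opposite to Arntl in 5 of 5 trained males, 2 of 5 non-trained males, 4 of 5 trained females and 2 of 5 non-trained females.

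Because group means enter the difference between these genes and Arntl, the libraries were also compared within groups. Each gene's log2 CPM was fitted in limma on the group and on Arntl. A slope of -1 means that a gene was lower by the same fold by which Arntl was higher. These slopes are associations across 20 libraries that share a scaling and, for each gene, the same Arntl values. Per3 was the 1 gene of the other 9 that passed, at -0.99 per log2 CPM of Arntl (SE 0.16, adjusted p = 0.019), where 0.0382% of 15708 genes did, 6 in all. It ranked 3 of all genes on the negative side. Tef followed at -0.45 (SE 0.10, adjusted p = 0.22, rank 10), then Per2 at -1.31 (SE 0.31, adjusted p = 0.25, rank 11), Nr1d2 at -0.40 (SE 0.11, adjusted p = 0.32, rank 30), Dbp at -1.13 (SE 0.36, adjusted p = 0.48, rank 83) and Cry2 at -0.35 (SE 0.13, adjusted p = 0.54, rank 165), none of which passed.

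Per1 gave -0.74 (SE 0.41; -0.33 without non-trained male library 5) and Cry1 -0.031 (SE 0.141), neither of which passed, and the sign for Cry1 turned under 8 of the settings tried, among them library size alone. Nr1d1 gave 0.62 (SE 0.28, adjusted p = 0.66), a value that was 0.083 without non-trained male library 5 (adjusted p = 0.981) and 0.068 without both libraries that stand apart; without library 5 Cry1 gave 0.17. The median slope of the 9 genes was -0.45, against 0.0043 over all genes. The Per3 call was lost without trained female library 1 (adjusted p = 0.0602), non-trained male library 5 (0.211), trained male library 1 (0.113) or trained male library 5 (0.0535), with slopes of -1.10 to -0.95, and without both libraries farthest from the median in Arntl, trained males 5 and 3 (-0.99, adjusted p = 0.0598). The number of genes called, 6, was 0 without trained female library 1 or non-trained male library 5, 1 without trained male library 1, 10 without trained female library 2 and 11 without non-trained female library 1.

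**Figure D4:**
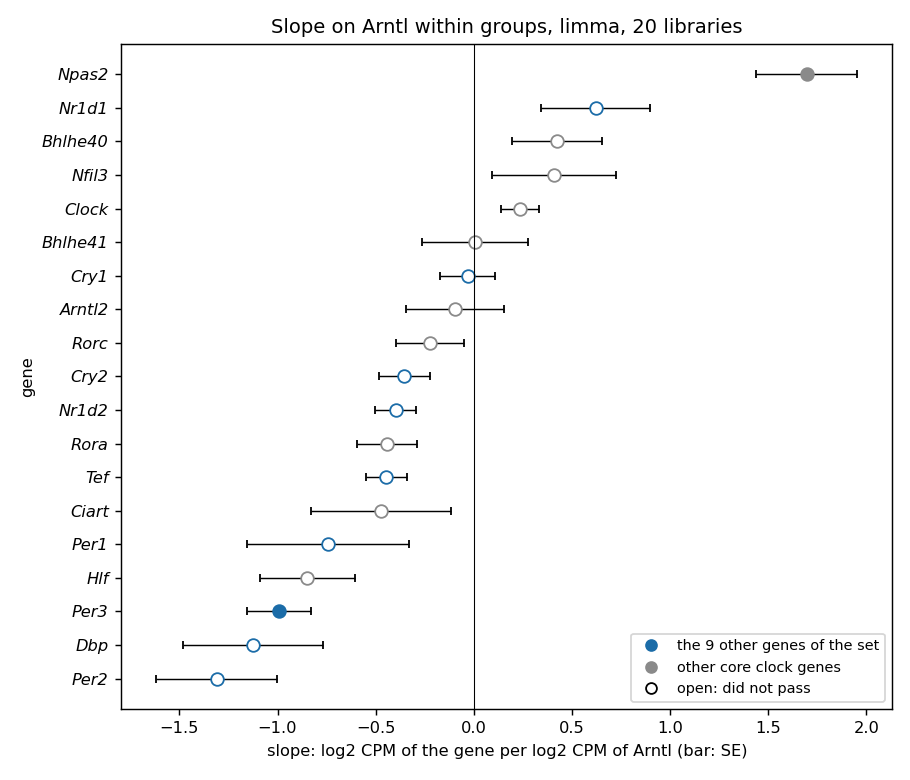
Slope of log2 CPM on the log2 CPM of Arntl within groups (horizontal axis, limma, 20 libraries; bar: SE) for the 9 other clock genes described here and the 10 further core clock genes measured; filled points passed at an adjusted p under 0.05. Npas2 (1.70) and Per3 (-0.99) are filled, and Per2 (-1.31) and Dbp (-1.13) are open; Nr1d1 (0.62) is 0.083 when non-trained male library 5 is left out.

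The genes most like Arntl across libraries by this fit were Cdc42ep2 (slope 1.11, adjusted p = 0.011), an effector of the small GTPase CDC42, Npas2 (1.70, adjusted p = 0.011), which encodes a partner of BMAL1, and Abtb2 (0.76, adjusted p = 0.021). Next in order, without passing, came Dusp10, Ptpn4, Galnt17, Dnajc27, Rara, Zfp703 and Dok5. Most opposite were Nrip1 (-1.24, adjusted p = 0.011), a nuclear receptor corepressor that restrains oxidative genes in muscle, Ide (-0.88, adjusted p = 0.019), the insulin-degrading enzyme, and Per3. Without passing, Aaed1, Hdac4, Mylk4, Ddi2, Acot2, Tef and Per2 came after these. Thus 3 of the 10 genes taken on the negative side belonged to the set, which gave 9 of the 15708 genes fitted. Of these 3 only Per3 passed. Without non-trained male library 5 the adjusted p in the same fit was 0.211 for Per3, 0.691 for Tef and 0.694 for Per2. In non-trained male library 5, low in Arntl, Nrip1 stood at 88.0 CPM, against 29.4 to 35.4 in the other 4 non-trained males. Ide stood at 331.5 CPM there, against 165.5 to 173.4. Gene copy number was not measured, so for Ide a difference in gene dosage between samples cannot be told apart from one in expression. Cdc42ep2 (7.25 CPM against 11.3 to 15.3) and Abtb2 (7.34 against 12.7 to 17.2) lay below the other 4. Without that library no gene passed. With Dbp in place of Arntl 11 genes were called, none of the 9 others; Arntl gave -0.33 per log2 CPM of Dbp (SE 0.10, adjusted p = 0.14), Cry2 0.26 (adjusted p = 0.059), Nr1d2 0.23 (adjusted p = 0.071) and Tef 0.23 (adjusted p = 0.092).

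Npas2 showed the levels behind its slope. It stood at 1.45, 0.912, 0.483, 0.808 and 0.609 CPM in trained males, against 3.28, 2.33, 1.70, 2.25 and 0.670 CPM in non-trained males. In females it stood at 0.756, 3.04, 1.95, 1.64 and 2.37 CPM in trained animals, against 1.71, 2.07, 2.37, 3.78 and 3.47 CPM in non-trained animals. As for Arntl, non-trained male library 5 lay with the trained males, and trained female library 1 was the lowest of its group. Between trained males and trained females Npas2 gave a log2 difference of -1.19 (SE 0.40, adjusted p = 0.082), and between trained and non-trained males a log2 difference of -1.26 (SE 0.40, unadjusted p = 0.0045, adjusted p = 0.99). Clock, which encodes the usual partner of BMAL1, gave a log2 difference of -0.27 (SE 0.09, unadjusted p = 0.0085, adjusted p = 0.99) between trained and non-trained males.

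Of the other core clock genes, 10 of 11 were measured (Rorb was below the filter). Between trained males and trained females 0 of the 10 passed in edgeR, 8 with an unadjusted p under 0.05 (20.7% of all genes). Shares of all genes called were 5.60% there, 5.21% in non-trained mice and 17.9% over both states (9.91% higher and 8.03% lower in males). Between non-trained males and females 1 rose, Bhlhe41 (DEC2, a repressor at E-boxes; log2 difference 0.82, SE 0.22, adjusted p = 0.039). Over both states 2 rose in males, Hlf, the other PAR bZIP gene (log2 difference 0.87, SE 0.19, adjusted p = 0.0039), and Bhlhe41 (log2 difference 0.69, SE 0.16, adjusted p = 0.0058). Another 2 fell, Nfil3, which encodes a repressor that competes with the PAR bZIP factors for D-boxes (log2 difference -0.85, SE 0.20, adjusted p = 0.0065), and Bhlhe40 (DEC1; log2 difference -0.45, SE 0.15, adjusted p = 0.039). Hlf lay at 16.6 to 22.8 CPM in trained males, against 6.33 to 14.96 CPM in trained females, without overlap, where 3.92% of all genes lay higher without overlap. Nfil3 lay at 18.7 to 33.1 CPM in trained males, against 32.6 to 73.0 CPM in trained females, with a narrow overlap. Training called none of the 10 in edgeR, with an unadjusted p under 0.05 for 2 in males (Npas2 and Clock, against 4.30% of all genes) and 0 in females (against 8.57%).

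Genes that act on clock proteins or lie downstream were counted against the 17.9% of all genes called over both states. Of 8 kinase and ubiquitin ligase genes measured of 9, 1 rose over both states (Fbxw11, log2 difference 0.14) and 0 fell. Of 16 known clock output genes, 2 rose over both states, Mylk4, a myosin light chain kinase gene (0.75), and Tspan4 (0.53), and 2 fell, Pdk4, which switches muscle away from glucose oxidation (-1.08), and Slc2a4, the GLUT4 glucose transporter gene (-0.22). Training called none of either list in edgeR; 3 genes of the pair of lists had an unadjusted p under 0.05 in males (4.30% of all genes) and 3 in females (8.57%).

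Lists of genes that also follow the daily cycle through hormones, temperature and food were counted beside these. Of all genes, 5.60% were called between the sexes in trained mice, 5.21% in non-trained mice and 17.9% over both states. Of 16 glucocorticoid target genes, Foxo3 and Klf15 fell in males relative to females in trained (-0.53 and -0.78) and in non-trained mice (-0.50 and -0.63), with Zbtb16 (-0.50) added over both states, and 0 rose. In trained mice 7 of the 16 had an unadjusted p under 0.05 in edgeR (20.7% of all genes). There 3 of the 16 lay above 0, with a median of -0.42, against 0.0030 over all genes. In non-trained mice 3 had such a p (21.7% of all genes) and 7 lay above 0, with a median of -0.13. Of 8 temperature-responsive genes, Rbm3, a cold-induced RNA-binding protein gene, rose in males in trained (0.78) and non-trained mice (0.82), and Cirbp over both states (0.46). Of 9 genes of feeding and fasting, Srebf1 rose (0.47) and Pdk4 fell over both states. Training called 0 genes of these 3 lists in edgeR in either sex; of the 9 genes of feeding and fasting, 3 in males (4.30% of all genes) and 5 in females (8.57%) had an unadjusted p under 0.05. In males 5 of the 9 had a log2 difference above 0, trained minus non-trained, with a median of 0.18, and in females 9 of 9, with a median of 1.001; the medians over all genes were -0.00022 and 0.0035. Their part in the clock gene differences was not tested.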

How the data were processed

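Each deposited table holds 1 library, with RSEM's expected count, TPM and FPKM of each gene, per the file headers. The build was GRCm38 per the submitters' processing notes, which list STAR 2.5.1, RSEM 1.3.1, Trim Galore and cutadapt, and further edgeR and limma, without their roles; the annotation release and the strand setting of the counting are not given in the sources used here. Symbols came from GENCODE M21 (53274 of 53465 identifiers; the rest held 0.0136% of counts). Promoter sequences are RefSeq's, on GRCm38.p6.

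Expected counts were rounded, filtered with filterByExpr (minimum count 10; 15709 genes), scaled by TMM and fitted by the robust quasi-likelihood method of edgeR 4.0.16 under R 4.3.3, each group having its own coefficient (16 residual degrees of freedom). The 7 comparisons were training in males, in females and on average, its interaction with sex, and sex in trained mice, in non-trained mice and on average. A gene was called at a Benjamini-Hochberg adjusted p under 0.05 over all genes. SE is the log2 difference over the square root of F. Slopes on Arntl came from limma 3.58.1 on log2 CPM (prior count 2; 15 residual degrees of freedom) and Dbp replaced Arntl in an alternative. TPM served to order levels between genes and, in an alternative, to compare male and female means of each clock gene, and FPKM was not used. The procedure was tested on simulated counts. The 10 genes and the gene lists were chosen with earlier results of these data known. From the slope fit the 10 most positive and 10 most negative genes with a mean of at least 1 CPM were named, without predicted genes, pseudogenes, immune receptor segments, Y-linked genes and Xist; other list members were named where called, with up to 4 more per list by unadjusted p. Only wild-type libraries were analysed here.

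Alternatives were DESeq2 1.42.0, limma-voom, RLE factors, library size alone, all genes kept, a filter of 1 CPM in 5 or more libraries with mean counts of 20 or more, a fit of the compared groups alone, a fit without mitochondrial DNA genes and the 20 most abundant genes, and fits that drop 1 library each. Deposited TPM in place of CPM was tried for the ratio of male to female means of each clock gene. The difference between Arntl and the other genes was also taken with Cry1 and Cry2 added, and with Dbp, Nr1d1 and Tef only. Leaving out non-trained female library 1 together with non-trained male library 5 was added after the data were seen.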

Additional observations from a re-analysis of the deposited data

Results flagged for a closer look

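Arntl in non-trained male library 5 stood at 14.91 CPM, against 25.81 to 29.11 CPM in the other 4 non-trained males. Its gap to the nearest of them was 0.768 of the whole range of the group, above the critical value of 0.71 for 5 samples. Chance flags about 1 in 20 groups, and 40 sets of 5 libraries (10 genes in 4 groups) were looked at, of which this was the 1 past that value. In the same library Nr1d1 (47.7 CPM), Npas2 (0.670 CPM) and Nr1d2 (129 CPM) stood outside the range of the other 4, as did Per1 (67.1 CPM), Per2 (30.2 CPM), Per3 (27.3 CPM), Cry1 (20.5 CPM) and Tef (338 CPM) but of the 10 genes Arntl alone had a gap above the critical value. Dbp (79.5 CPM) and Cry2 (56.3 CPM) lay within it.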

How the results depend on the processing

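The signs of the 6 clock gene differences called in trained mice and of the 5 called over both states held under each alternative tried. No paired analysis was possible because the labels give libraries of different groups no shared replicate numbers. With DESeq2 33 genes were called for training in females, 5 in males, 30 on average and 1 for the interaction, and 1401 and 1465 for sex in trained and non-trained mice, with 2 clock genes called in the non-trained. Limma-voom called 0 genes for training on average and 1 clock gene for sex in non-trained mice. With no low-count filter 1 gene was called for training on average and 558 for sex in trained mice. With only the groups compared, 448 were called for sex in non-trained mice. Without both libraries that stand apart, 1 gene was called for training in males, 8 on average and 434 for sex in non-trained mice, and the slope on Arntl called 0 genes and 0 clock genes. Without a group term it called 154 genes, 4 of them clock genes, and without both libraries farthest in Arntl 0 clock genes. The Cry1 slope was 0.067 with library size alone, 0.019 without the libraries farthest in Arntl, 0.067 without a group term and 0.17 without the libraries that stand apart. With 1 library left out it ran between -0.21 and 0.17. In the same fits the genes called numbered 0 to 1 for training in either sex, 0 to 7 on average, 494 to 1239 for sex in trained and 435 to 1038 in non-trained mice, and 0 to 11 for the slope, and the clock genes called 2 to 6, 0 to 1 and 0 to 1 for sex in trained mice, sex in non-trained mice and the slope. The causes were not tested. Of the 10 genes Per2 had the lowest count in a library, 83, so counting error weighs there first.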
